A study of Rattus norvegicus with 6 samples.

Results

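Nuclear receptors are transcription factors whose activity most often follows a small lipid-soluble ligand. This account covers 37 genes of the family, given as a list by symbol, in the livers of rat pups at weaning. Of these, 35 were paired with at least 1 probe set of the array, out of 14217 genes with a probe set in all, and each was read from the probe set with the highest mean over all 6 arrays. Nr6a1 and Hnf4g were not paired with a probe set and are not analysed here. The rule named genes by family membership and used measured values only to choose the probe set. The list was drawn up with earlier results of these data known, and it does not hold every receptor of the family.

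Liver RNA came from Sprague-Dawley offspring aged 3 weeks. High fat pups had dams fed a high fat diet (3 arrays), and control pups had dams fed standard chow (3 arrays). Both groups share strain, tissue and age, and the labels name no genotype or drug. The labels name no litter and no sex, and each array is 1 labelled sample, so p-values measure only the spread between these samples, which may be partly technical. The question addressed is whether receptor transcripts in offspring liver differ with maternal diet.

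Many nuclear receptors that sense lipids bind DNA as partners of a retinoid X receptor (RXR), at pairs of a short core sequence, and recruit coactivator or corepressor proteins. In the liver they read the nutrient state. PPAR alpha senses fatty acids during fasting and suckling, the liver X receptors sense oxysterols, FXR senses bile acids, PXR and CAR sense foreign compounds, and thyroid hormone and retinoic acid act through their own receptors. Other receptors, among them the steroid receptors, do not need RXR to bind.

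Values below are log2 signals after quantile normalization, differences are high fat minus control on that scale, and SE is limma's standard error. Levels of different genes are not compared, because each probe set has its own response. Of the 35 members, 26 had a mean above the brightness limit of 5.83, under which the lowest 40% of probe sets fall, and these were tested. The other 9 are given by level alone.

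All arrays carried the defining transcripts of hepatocytes, with a summed linear signal over 7 marker genes of 175168 to 190164 in high fat pups and 195006 to 197379 in control pups. The 6 arrays differed in other ways. High fat replicate 1 held exocrine pancreas transcripts, with a summed signal over 8 genes of 48717, against 342 and 431 in the other high fat arrays and 307 to 416 in controls. High fat replicate 3 stood apart in 2 of 3 sex-linked transcripts, with Xist at 4.45, against 12.92 and 12.51 in the other high fat arrays and 12.46 to 13.31 in controls, and the Y-linked Eif2s3y at 11.14, against at most 3.99 elsewhere. The probe set of the other Y-linked gene, Uty, was bright on every array, at 11.00, 11.20 and 10.26 in high fat arrays and 11.19, 10.83 and 10.64 in controls. Its signal therefore did not tell the arrays with high Xist from high fat replicate 3. By Xist and Eif2s3y the high fat group was mixed, while the control arrays were alike. Sinusoidal endothelial markers summed to 11078 to 14474 in high fat pups and 19468 to 22960 in controls over 7 genes, all 7 with a negative difference. In bulk tissue, fewer cells of a type and less RNA per cell cannot be told apart. The 3' minus 5' difference of beta-actin control probe sets, which grows as RNA is degraded, was 3.81, 3.18 and 3.36 in high fat arrays, and 3.42, 3.69 and 4.50 in controls. That of GAPDH was also highest in control replicate 3 (1.63), but that of hexokinase was highest in control replicate 1 (3.79) and -0.86 in control replicate 3.

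No member passed an adjusted p under 0.05 in limma, where 0.0386% of the 10372 genes tested did. At an unadjusted p under 0.05 there were 3 of the 26 tested members, 11.5%, against 14.0% of all genes tested. Of these, 1, Ppara, lay higher in high fat pups (6.55% of all genes) and the other 2, Nr1h3 and Nr2f2, lay lower (7.49% of all genes). The count was 6 without high fat replicate 1 and 6 without control replicate 1, where 12.6% of all genes tested were past the threshold each time, and 5 without control replicate 3, where 11.0% were. Without high fat replicate 3 it was 4, where 10.8% were. Without high fat replicate 2 or control replicate 2 it was 2, where 10.2% and 13.2% of all genes tested were past the threshold. The groups did not overlap in 5 members, 19.2%, against 20.8% of all genes. Of these, Ppara and Nr4a2 lay higher in every high fat array (9.26% of all genes) and Nr1h3, Nr2f2 and Nr2f1 lay lower (11.6% of all genes). With all 6 arrays the family's shares were close to those of all genes tested. With 1 array left out, the family's share at the unadjusted threshold was above that of all genes where 4, 5 or 6 members passed. It was below that of all genes in the fits where 2 members passed. The median difference over the 26 members was 0.09, with 15 positive and 11 negative, beside -0.02 over all genes tested. It was 0.0013 without high fat replicate 1 and 0.0055 without control replicate 1. The median size of the difference regardless of sign was 0.37 among members and 0.19 among all genes.

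**Figure D1:**
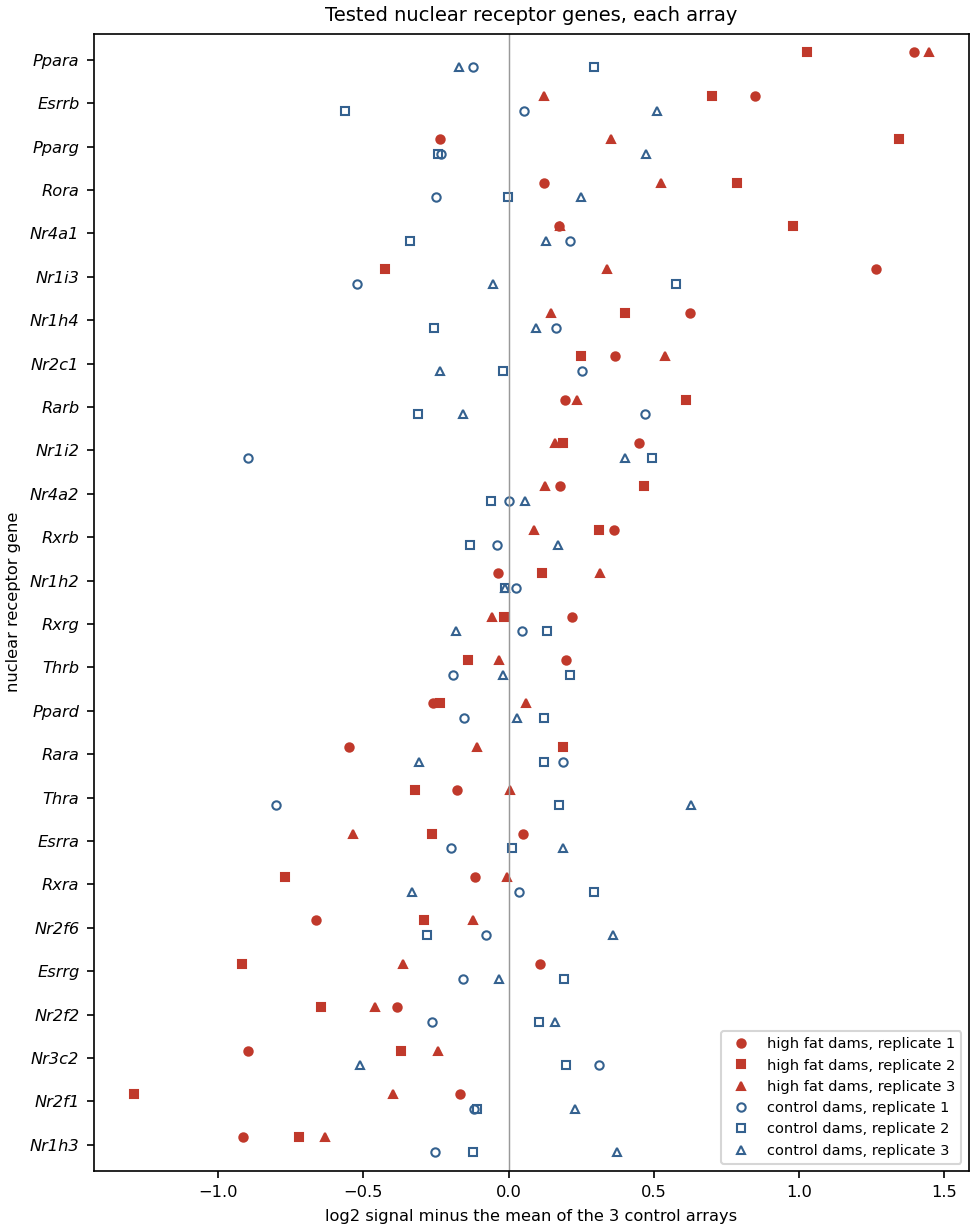
Log2 signal of each array minus the mean of the 3 control arrays, for the 26 tested nuclear receptor genes, ordered by the difference between diets. Filled red symbols are pups of high fat dams and open blue symbols are pups of control dams, with the shape giving the replicate. Ppara stands to the right in all 3 high fat arrays and Nr1h3 to the left, and most other rows overlap.

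Of the 3 peroxisome proliferator-activated receptors, Ppara alone had groups that did not overlap. Ppara, the fatty acid receptor that switches on fat oxidation and ketone synthesis, was at 7.92, 7.55 and 7.97 in high fat pups, against 6.40, 6.82 and 6.35 in control pups. Every high fat array lay above every control array, with means of 7.81 ± 0.23 and 6.52 ± 0.25 (SD, n = 3 each). The difference was 1.29 (SE 0.19), 2.45-fold higher, with limma adjusted p = 0.131. It ranged from 1.21 to 1.43 with 1 array left out, and was 1.03 with high fat replicates 1 and 3 both left out, where high fat replicate 2 stood alone and was assumed to vary like the controls. It was also this large without the array that held pancreas transcripts (1.24) and without the array with high Eif2s3y (1.21).

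Ppard, the most widely expressed of these receptors, had overlapping values of 7.75, 7.77 and 8.07 in high fat pups and 7.85, 8.13 and 8.04 in controls, with a difference of -0.15 (SE 0.15) that was -0.08 without control replicate 2 and -0.25 without high fat replicate 3. A dimmer second probe set of Ppard, with a mean of 4.31 below the limit, read 5.13, 4.77 and 4.78 in high fat pups and 3.07, 3.25 and 4.88 in controls. The probe sets of Ppard disagreed in sign. Pparg, the receptor of fat cell formation, was at 6.56, 8.14 and 7.14 in high fat pups, against 6.56, 6.55 and 7.26 in controls. Its difference of 0.49 (SE 0.41) came mostly from high fat replicate 2 and was 0.060 without that array and 0.85 without high fat replicate 1.

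The promoter sequences of the members with the lowest p values, Ppara and Nr1h3, are shown because their differences ran in opposite directions and their start regions differ in composition. Both come from RefSeq on build GRCr8 and span 250 bases before to 50 after the start, 5′ to 3′ on the gene's strand, with CG pairs in capitals. The table held a promoter for 31 of the 37 members, some with several start sites, 37 sequences in all.
Ppara, chr7:118712357-118712656, plus strand: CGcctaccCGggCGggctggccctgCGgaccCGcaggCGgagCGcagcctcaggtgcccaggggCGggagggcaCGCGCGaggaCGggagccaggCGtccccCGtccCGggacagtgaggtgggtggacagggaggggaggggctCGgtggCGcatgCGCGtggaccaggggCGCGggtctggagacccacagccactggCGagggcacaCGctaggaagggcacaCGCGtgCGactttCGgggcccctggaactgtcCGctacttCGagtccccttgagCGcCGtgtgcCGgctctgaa
Nr1h3, chr3:97623180-97623479, minus strand: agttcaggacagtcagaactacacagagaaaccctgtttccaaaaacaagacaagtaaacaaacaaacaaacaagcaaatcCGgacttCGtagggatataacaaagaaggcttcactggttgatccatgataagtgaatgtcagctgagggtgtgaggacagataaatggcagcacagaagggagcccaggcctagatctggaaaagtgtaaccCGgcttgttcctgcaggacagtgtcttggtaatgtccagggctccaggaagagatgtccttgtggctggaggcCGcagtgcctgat
The Ppara sequence had 32 CG pairs and 73.7% G and C, and the Nr1h3 sequence had 4 CG pairs and 48.0%. Member promoters had a median of 60.7% G and C, beside 51.7% over all 33469 promoters in the table. The receptor core AGGTCA, or its reverse complement TGACCT, was in 3 of the 37 member sequences (8.11%, in Esrrg, Nr0b1 and Rarg), beside 16.2% of all promoters of that length. The repeat AGGTCANAGGTCA, on either strand, was in none of them and in 18 of all promoters (0.0538%). Neither motif was in the Ppara or Nr1h3 window, which says nothing of whether a receptor binds there.

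Retinoid receptors showed small differences without separation of the diets. Rxra, the common partner in liver, was at 7.26, 6.60 and 7.37 in high fat pups and 7.41, 7.67 and 7.04 in controls, with overlapping groups and a difference of -0.30 (SE 0.26) that was -0.06 without high fat replicate 2 and -0.46 without control replicate 3. Rxrb had 8.51, 8.45 and 8.23 in high fat pups and 8.10, 8.01 and 8.31 in controls, a difference of 0.25 (SE 0.15). The Rxrg probe set read 9.71, 9.47 and 9.44 in high fat pups, against 9.54, 9.62 and 9.31 in controls, and a second set gave a difference of -0.09 beside 0.05 for the first. None of the 3 RXR genes separated the groups, and limma's adjusted p was 0.645, 0.489 and 0.915 for Rxra, Rxrb and Rxrg.

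Among the retinoic acid receptors, Rara was at 7.49, 8.23 and 7.93 in high fat pups and 8.23, 8.16 and 7.73 in controls (difference -0.16, SE 0.23). Rarb, itself a classical target of retinoic acid, was at 10.93, 11.34 and 10.97 in high fat pups, against 11.20, 10.42 and 10.58 in controls (difference 0.35, SE 0.24). Control replicate 1 lay above 2 of the high fat arrays for Rarb, and without it the difference was 0.58, while without control replicate 2 it was 0.19 and without high fat replicate 2 it was 0.21. Rarg stayed below the brightness limit on all arrays.

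Of the oxysterol and bile acid receptors, Nr1h3 lay lower in every high fat array. It encodes LXR alpha, which senses oxysterols and drives sterol export and fatty acid synthesis, in hepatocytes and in macrophages. Its signal was 10.98, 11.17 and 11.26 in high fat pups, against 11.64, 11.77 and 12.26 in control pups. The groups did not overlap, with means of 11.13 ± 0.14 and 11.89 ± 0.33 (SD, n = 3 each), and the highest value was that of control replicate 3. The difference was -0.76 (SE 0.19), 1.69-fold lower, with limma adjusted p = 0.211. It was -0.57 without control replicate 3, the array with the highest 3' minus 5' difference of beta-actin and GAPDH but not of hexokinase. Without control replicate 1 it was -0.88. Summed Kupffer cell markers over 6 genes overlapped, at 11298 to 18983 in high fat pups and 14708 to 17420 in controls. Of the 6 differences, 5 were negative and 1 positive, with a median of -0.06. Of these markers only Cd163 lay lower in every high fat array (11.6% of all genes), at -0.52 (SE 0.19). The part of Kupffer cells in the Nr1h3 value was not tested.

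The sister gene Nr1h2, which encodes the widely expressed LXR beta, overlapped between the diets, at 7.90, 8.05 and 8.25 in high fat pups and 7.96, 7.92 and 7.92 in controls (difference 0.13, SE 0.14). Leaving out high fat replicate 3 gave 0.04 for Nr1h2, and leaving out high fat replicate 1 gave 0.21. Nr1h4, the bile acid receptor FXR, was at 11.86, 11.64 and 11.38 in high fat pups, against 11.40, 10.98 and 11.33 in controls. High fat replicate 3 fell just inside the control range, and the difference was 0.39 (SE 0.18, limma adjusted p = 0.403), or 0.26 without control replicate 2.

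The xenobiotic receptors overlapped between the diets, and the sign of each rested on 1 array. Nr1i2, or PXR, which responds to drugs and bile acids, was at 10.61, 10.35 and 10.32 in high fat pups and 9.26, 10.65 and 10.56 in controls. Control replicate 1 was the low array, and the difference of 0.27 (SE 0.37) turned to -0.18 without it. Nr1i3, or CAR, which drives genes of drug and bilirubin clearance, was at 10.86, 9.17 and 9.93 in high fat pups, against 9.07, 10.17 and 9.54 in controls. Its difference of 0.39 (SE 0.46) turned to -0.04 without high fat replicate 1, the array with pancreas transcripts, and was 0.80 without high fat replicate 2.

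**Figure D2:**
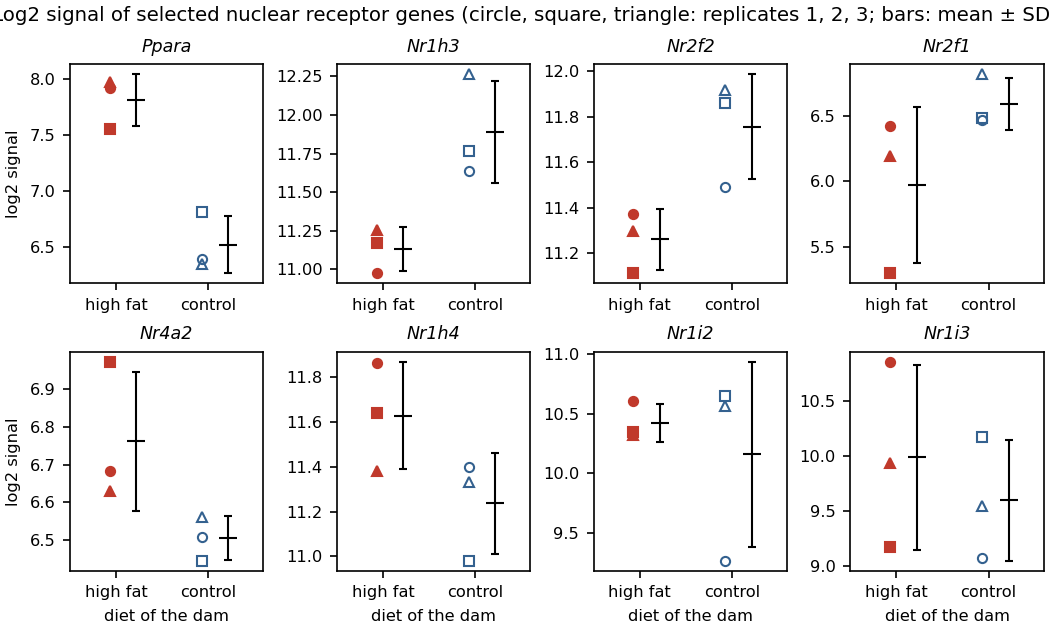
Log2 signal (vertical axis, a scale of its own in each panel) of 8 nuclear receptor genes in pups of high fat dams (filled red) and control dams (open blue), each symbol 1 array, with the mean and SD as bars. The first 5 panels, from Ppara to Nr4a2, are the members whose groups do not overlap, and the last 3 overlap.

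Both thyroid hormone receptors overlapped between the diets. Thrb, the main thyroid hormone receptor of the liver, was at 11.86, 11.52 and 11.62 in high fat pups and 11.47, 11.87 and 11.64 in controls, with a difference of 0.01 (SE 0.16). The other 2 probe sets of Thrb above the limit gave 0.15 and 0.24. Thra, the form that dominates in heart and bone, was at 7.29, 7.15 and 7.48 in high fat pups, against 6.67, 7.65 and 8.10 in controls. Control arrays of Thra spread on both sides of the high fat arrays, and the difference was -0.17 (SE 0.35). Without control replicate 1 it was -0.56, and without control replicate 3 it was 0.15. A second probe set of Thra above the limit gave -0.56 with all 6 arrays. Vdr, the vitamin D receptor, was below the limit on every array.

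Of the COUP-TF branch, Nr2f2 and Nr2f1 lay lower in every high fat array. Nr2f2 encodes COUP-TFII, known for its role in veins, lymphatics and mesenchyme. It was at 11.37, 11.11 and 11.30 in high fat pups, against 11.49, 11.86 and 11.92 in controls, without overlap. Means were 11.26 ± 0.14 and 11.76 ± 0.23 (SD, n = 3 each), and the difference was -0.50 (SE 0.16), 1.41-fold lower, with limma adjusted p = 0.277. A second probe set above the limit gave -0.40. Nr2f1, the related COUP-TFI, was at 6.42, 5.30 and 6.19 in high fat pups, against 6.47, 6.48 and 6.82 in controls. Its groups did not overlap, but high fat replicate 1 was just below the lowest control. The difference of -0.62 (SE 0.30) was -0.28 without high fat replicate 2, which lay below the brightness limit. Both genes ran in the direction of the sinusoidal endothelial marker sums given above. Stellate cell and fibroblast marker sums over 9 genes overlapped, at 15944 to 19424 in high fat pups and 16152 to 17704 in controls. Of these 9 marker differences, 6 were positive and 3 negative. The part of either group of cells in the Nr2f2 and Nr2f1 differences was not tested. Nr2f6, the remaining gene of this branch, was at 9.61, 9.98 and 10.15 in high fat pups and 10.19, 9.99 and 10.63 in controls, a difference of -0.36 (SE 0.22) with overlap. It was -0.18 without control replicate 3.

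A pair of orphan receptors ran the other way with slight overlap. Nr2c1, the testicular receptor TR2, was at 8.48, 8.36 and 8.65 in high fat pups, against 8.37, 8.09 and 7.88 in controls. Only high fat replicate 2 lay below the highest control, and the difference was 0.38 (SE 0.17, limma adjusted p = 0.372), with 0.41 in a second probe set above the limit. Rora, which activates clock and lipid genes at sites that the REV-ERB repressors share, was at 8.37, 9.03 and 8.77 in high fat pups and 8.00, 8.24 and 8.50 in controls, a difference of 0.48 (SE 0.22, limma adjusted p = 0.385). A second probe set of Rora, below the limit, gave -0.18, and the mean of both gave 0.15.

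Steroid and estrogen-related receptors were mixed. Nr3c2, the mineralocorticoid receptor, was at 7.47, 8.00 and 8.13 in high fat pups, against 8.68, 8.57 and 7.86 in controls, a difference of -0.50 (SE 0.27). Control replicate 3 lay among the high fat arrays, and without it the difference was -0.76, while without high fat replicate 1 it was -0.31. Esrra, a regulator of mitochondrial genes, was at 8.61, 8.29 and 8.02 in high fat pups and 8.36, 8.57 and 8.75 in controls (difference -0.25, SE 0.19), and leaving out high fat replicate 3 gave -0.11 while leaving out high fat replicate 1 gave -0.40. Esrrg was at 9.73, 8.70 and 9.26 in high fat pups, against 9.46, 9.81 and 9.59 in controls (difference -0.39, SE 0.26). High fat replicate 1 was the exception for Esrrg, and without it the difference was -0.64, while without high fat replicate 2 it was -0.13. Its second probe set above the limit gave -0.75. Esrrb, close to the limit, was at 6.59, 6.44 and 5.86 in high fat pups and 5.79, 5.17 and 6.25 in controls (difference 0.56, SE 0.31). Without control replicate 2 the Esrrb difference was 0.27, and without control replicate 3 it was 0.82.

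The NR4A genes respond to stimulation within minutes, and in liver they also follow fasting hormones. Nr4a2 was at 6.68, 6.97 and 6.63 in high fat pups, against 6.51, 6.45 and 6.56 in controls, just without overlap (difference 0.26, SE 0.14, limma adjusted p = 0.472). Without high fat replicate 2 it was 0.15. A second probe set below the limit ran the other way, at 4.26, 4.25 and 4.44 in high fat pups and 5.53, 5.34 and 4.92 in controls. Nr4a1 was at 6.20, 7.01 and 6.20 in high fat pups and 6.24, 5.69 and 6.15 in controls (difference 0.44, SE 0.27), and was 0.18 without high fat replicate 2. Nr4a3 was below the limit by its mean but above it in high fat replicate 2 and in 2 controls. High fat replicate 2 was the highest array for all 3 genes. Of 13 tested immediate early genes outside the family, the median difference was -0.18, with 5 positive and 8 negative. Of these genes 2 lay lower at an unadjusted p under 0.05 (7.49% of all genes). Leaving out high fat replicate 1 gave a median of -0.41, and leaving out high fat replicate 3 gave -0.02.

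**Figure D3:**
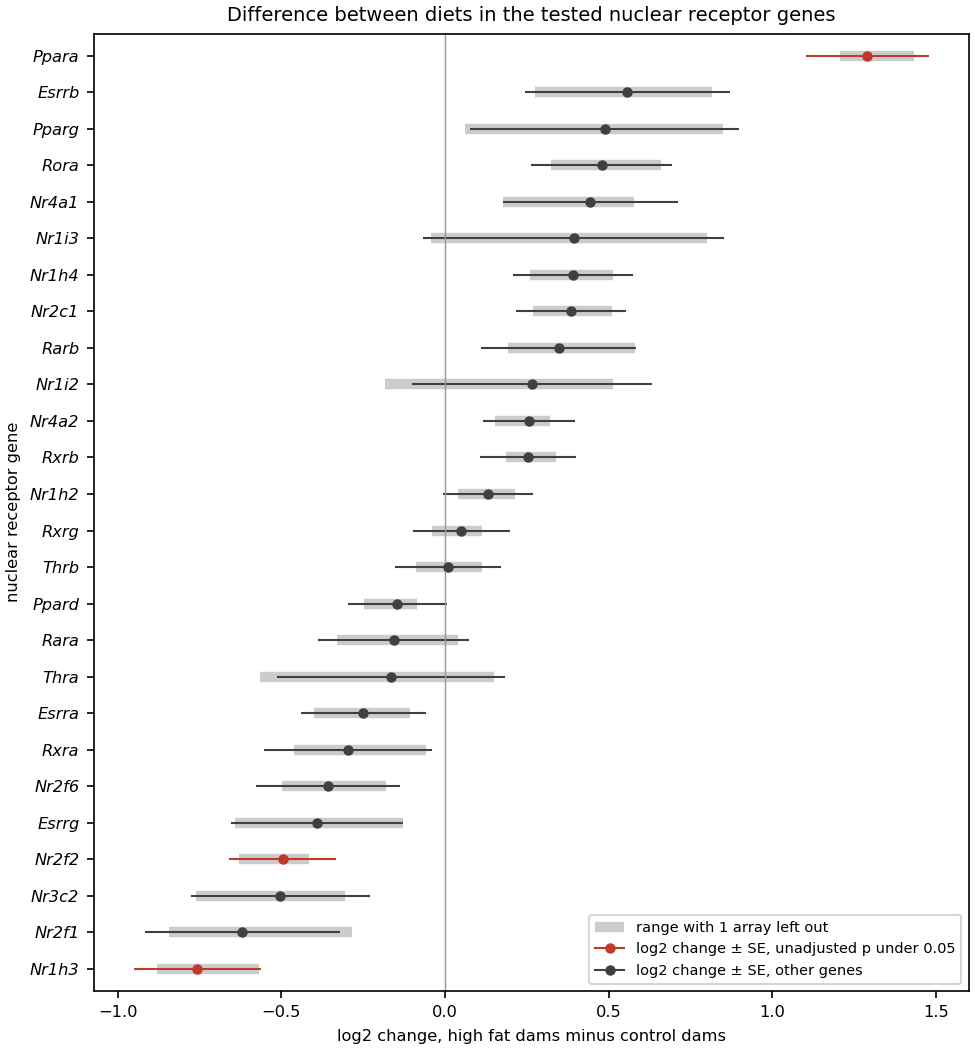
Difference between diets (high fat minus control, log2) with limma's SE for the 26 tested nuclear receptor genes, over a grey bar for the range with 1 array left out. Red marks the 3 genes at an unadjusted p under 0.05, and the grey bars of 6 genes cross 0.

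Below the brightness limit were Rarg, Vdr, Rorb, Nr2c2, Esr1, Esr2, Pgr, Nr4a3 and Nr0b1, and apart from Nr4a3 all of their arrays lay under the limit. Esr1, the estrogen receptor of adult liver, had 1.05, 3.43 and 0.73 in high fat pups and 0.54, 0.92 and 2.19 in controls. Esr2 had 1.54, 1.46 and 4.57 in high fat pups and 2.28, 2.58 and 3.33 in controls, the highest being high fat replicate 3, which also had high Eif2s3y. Neither estrogen receptor separated the diets. Vdr had 4.11, 5.19 and 5.28 in high fat pups, against 5.06, 4.82 and 5.50 in controls. Nr0b1, which represses other nuclear receptors, had 3.49, 5.28 and 5.39 in high fat pups and 2.33, 4.87 and 5.29 in controls. The groups of all 9 overlapped, and no fold is given for values this close to the floor.

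**Figure D4:**
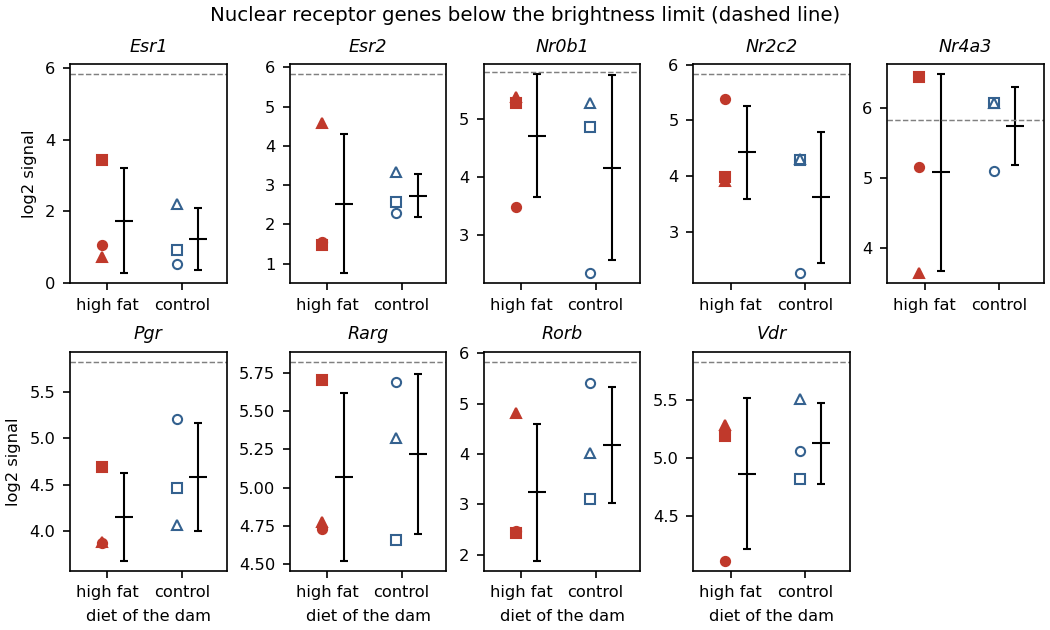
Log2 signal of the 9 nuclear receptor genes whose mean fell below the brightness limit of 5.83 (dashed line), in pups of high fat dams (filled red) and control dams (open blue), with mean and SD as bars. The groups overlap in every panel, and Nr4a3 alone has arrays above the line.

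Genes on which these receptors act were counted in lists drawn up with earlier results of these data known. Of 23 tested PPAR target genes, none passed the adjusted threshold in limma, but 10 lay higher and none lower at the unadjusted threshold (6.55% and 7.49% of all genes), 20 of the 23 differences were positive, and the median was 0.42. Taking each gene minus its control mean, the median over this list was 0.33, 0.78 and 0.50 in the high fat arrays, and -0.03, 0.35 and -0.31 in the control arrays. Among controls, replicate 2 was highest in both Ppara and this median, but among high fat pups replicate 2 had the highest median and the lowest Ppara. The count was 14, with a list median of 0.69, without control replicate 2, and was 8 to 10 without any other single array. In these fits 10.2% to 13.2% of all genes tested were past the threshold in either direction. Pdk4, which restrains glucose oxidation, had a difference of 2.08 (SE 0.42), and Ehhadh, of peroxisomal oxidation, 1.52 (SE 0.31). Neither passed the adjusted test.

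Of 13 tested genes of retinoid handling and RAR response, Retsat, a retinol saturase, passed (difference 1.67, limma adjusted p = 0.0254). At the unadjusted threshold 5 of the 13 lay higher and 1 lower (6.55% and 7.49% of all genes). Retsat did not pass when any single array was left out, with adjusted p from 0.0839 to 0.132 in limma and differences from 1.55 to 1.74. Aldh1a2, which makes retinoic acid, was at 0.86 (SE 0.23), and Cyp26a1, which breaks it down and is induced by it, at 0.69 (SE 0.20). The list median was 0.31, and it was 0.088 with no brightness filter or a 20% filter and 0.0060 with the mean of all probe sets. Of 12 LXR target genes, 10 differences were positive and the median was 0.37, beside the negative difference of Nr1h3. At an unadjusted p under 0.05, 2 of them lay higher (6.55% of all genes). These 2 were Scd, also controlled by SREBP-1c and PPAR alpha, which passed the adjusted test (4.68, SE 0.27, limma adjusted p = 0.00696), and Mylip at 0.41 (SE 0.15). Scd did not pass without control replicate 1 or control replicate 3 (limma adjusted p = 0.0629 and 0.0784).

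Of 12 tested genes of thyroid hormone handling and response, 6 lay higher and 1 lower at the unadjusted threshold (6.55% and 7.49% of all genes). Their median was 0.37, or 0.62 without control replicate 1, and 0.098 with no brightness filter or a 20% filter. The brightest probe sets of the receptors had differences of 0.01 for Thrb and -0.17 for Thra. Gpd2, the mitochondrial glycerol phosphate dehydrogenase that thyroid hormone induces, had the lowest p, with a difference of 1.37 (SE 0.20). Of 11 FXR target genes the median was 0.09. At the unadjusted threshold 1 of them lay higher and 2 lower (6.55% and 7.49% of all genes). The list was not split by whether FXR raises or lowers a gene. The higher gene was Nr0b2 at 0.98 (SE 0.40), which is also counted among the other nuclear receptors below. The lower genes were the heparan sulfate carrier Sdc1 at -0.63 (SE 0.16) and Cyp8b1 at -1.20 (SE 0.40). At that threshold no FXR target lay higher without high fat replicate 1, high fat replicate 2, control replicate 2 or control replicate 3. Only 1 lay lower without control replicate 1 or control replicate 3. With 1 array left out, 10.2% to 13.2% of all genes tested were past the threshold in either direction. The FXR list median was 0.049 without control replicate 3, and was 0.042 or 0.053 when high fat replicate 1 or 3 was left out. Of 16 PXR and CAR target genes the median was 0.22. At the unadjusted threshold 1 of them lay higher and 1 lower (6.55% and 7.49% of all genes). Leaving out high fat replicate 1 or control replicate 1 gave 3 higher, where 12.6% of all genes were past the threshold in either direction. Leaving out high fat replicate 3 gave 2 higher, where 10.8% were. The median was 0.038 without control replicate 1, 0.13 without control replicate 3 and 0.34 without control replicate 2. Of 6 vitamin D genes only Dhcr7 was past the unadjusted threshold, at -1.72 (SE 0.37), where 7.49% of all genes lay lower. Dhcr7 is better known as an enzyme of cholesterol synthesis. The 19 tested coregulators, the coactivators and corepressors that receptors recruit, had 10 positive and 9 negative differences. Their median was between -0.0053 and 0.050 when 1 array was left out, and 0.14 with the mean of all probe sets. None was at an unadjusted p under 0.05, where 14.0% of all genes were. Past that threshold were 2 coregulators without control replicate 2 (13.2% of all genes) and 1 without high fat replicate 2 (10.2%).

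Of 6 tested nuclear receptors outside the list, 2 lay higher at an unadjusted p under 0.05 (6.55% of all genes) and none passed the adjusted test. They were Nr1d2, a clock repressor, at 0.61 (SE 0.17), and Nr0b2, the corepressor SHP that FXR induces, at 0.98 (SE 0.40). The count was 3 without control replicate 1, where 12.6% of all genes were past the threshold in either direction. It was 1 without control replicate 3 or high fat replicate 2, where 11.0% and 10.2% were.

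**Figure D5:**
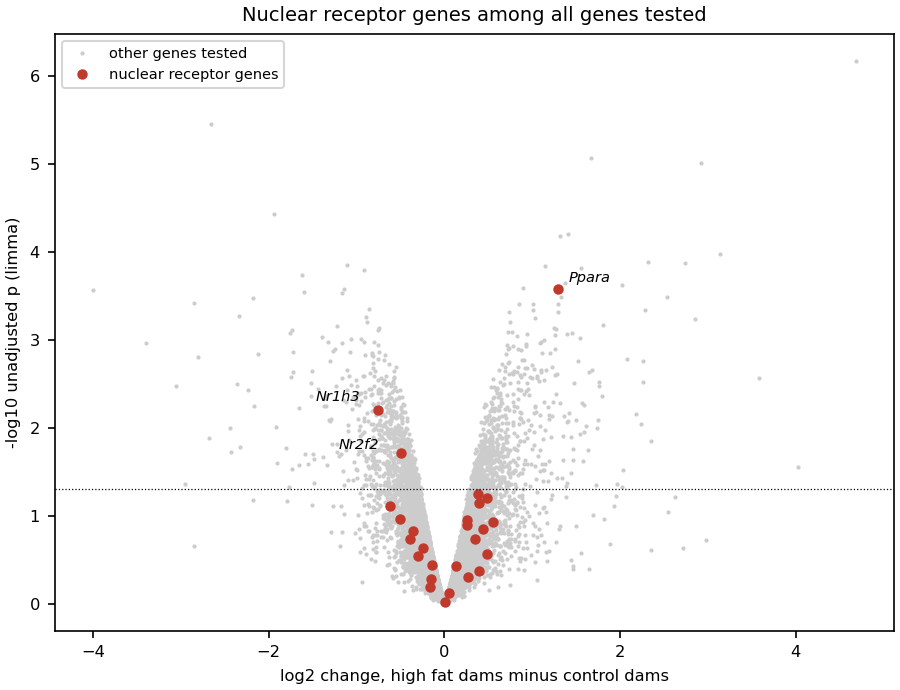
Each of the 10372 genes tested by its difference between diets (horizontal axis, log2, high fat minus control) and its unadjusted p in limma (vertical axis, -log10), with the 26 nuclear receptor genes in red and the dotted line at 0.05. Ppara, Nr1h3 and Nr2f2 are the 3 members above the line, where 14.0% of all genes tested also lie.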

How the data were processed

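Liver RNA of rat pups was measured on 6 Affymetrix rat arrays after 3' IVT labelling, per the labels' protocols. The authors deposited log2 signals, as the values themselves show: undoing base 2 gave each array the same trimmed mean, 500.2, and the lowest values were set to 0. Which software summarized the probes is not given in these sources. The quartiles differed between arrays by up to 0.22, so the log2 values deposited by the authors were quantile-normalized.

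The platform's 57 control probe sets were dropped. Of the remaining 31042, 20826 had 1 gene in the platform annotation, 436 several and 9780 none here; 20758 were matched to the current rat gene table (GRCr8), whose symbols were used. Each gene took its brightest probe set by mean over the arrays, and genes under the 40% brightness limit were left out, which left 10372 of 14217. The diets were set against each other in limma 3.58.1 (R 4.3.3; lmFit, then eBayes, 2-sided, no covariate), and p-values were adjusted by Benjamini-Hochberg across these genes. The procedure was tested on simulated data. Figures used matplotlib 3.10.9 in Python 3.11.15.

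The members and lists were chosen with earlier results of these data known. Every member with a probe set is named. Full values per array go to members past the unadjusted threshold or without overlap and to the main liver receptors, extended here to the other tested members, and up to 3 genes of the smallest p were taken from each list. The planned protein comparison was not run, since no protein sequences were used here; promoters were read instead. Sample numbers 1 to 3 come from the labels. Same-numbered arrays deviated from their group means with correlations of -0.128, -0.128 and -0.136, and the other array pairs with 0.043 to 0.082. The reported fit did not pair the arrays, and these values cannot settle whether the numbers mark pairs. The number of arrays limits the precision, and no detection calls were used.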

Additional observations from a re-analysis of the deposited data

How the results depend on the processing

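The 15 alternatives changed the normalization, the brightness filter, the probe set summary, the variance model, array weights, the replicate block and the arrays included; leaving out high fat replicates 1 and 3 together was chosen after seeing the data. No member passed the adjusted threshold in any of them, with the lowest limma adjusted p, 0.0813, for Ppara with a trended robust variance. Members at an unadjusted p under 0.05 numbered 3 as reported (14.0% of all genes), 4 with the replicate block (10.6%), 2 to 6 with 1 array left out (10.2% to 13.2%), and 6 without high fat replicates 1 and 3 (9.63%). Ppara was past that threshold in all 15, Nr1h3 in 14 and Nr2f2 in 10. The members' median of 0.09 was 0.0087 with no brightness filter or a 20% filter, and 0.0013 to 0.14 with 1 array left out. Over all genes, the replicate block gave 0 genes at an adjusted p under 0.05 in limma (1102 at an unadjusted p under 0.05) where the reported fit gave 4. Scd also missed the threshold with the replicate block and with no filter (limma adjusted p = 0.0682 and 0.0545), and Retsat with the replicate block, no filter and the 20% filter (0.181, 0.164 and 0.105). Without high fat replicates 1 and 3 both missed it (0.0751 for Scd and 0.255 for Retsat). LXR targets at the unadjusted threshold numbered 2 as reported, 1 without high fat replicate 2, high fat replicate 3 or control replicate 1, 3 without control replicate 2 and 4 without control replicate 3.

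Signs turned for 7 members. Thrb was -0.016 with arrays centred on their medians, -0.012 with array weights and -0.14 without high fat replicates 1 and 3, and ranged from -0.088 to 0.11 with 1 array left out. Ppard was 0.51 and Rxrg -0.022 with the mean of all probe sets. Without high fat replicates 1 and 3, Rxrg was -0.017, Rara 0.19 and Nr1i3 -0.43. With 1 array left out, Rxrg ranged from -0.040 to 0.11, Rara from -0.33 to 0.039, Nr1i3 from -0.043 to 0.80, Nr1i2 from -0.18 to 0.51 and Thra from -0.56 to 0.15; the other 20 members kept 1 sign there. The cause of these turns was not tested. Nr4a2, Nr2f6 and Thra fell below the brightness limit with the mean of all probe sets. Signal near the floor limits what can be read for the 9 dim members.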
